A study of Mus musculus with 27 samples.

Results

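Cholangiocytes are the epithelial cells that line the bile ducts, and 8 genes commonly used to mark them, Sox9, Epcam, Spp1, Cftr, Prom1, Sox4, Aqp1 and Cd24a, were followed by name through a bulk RNA-seq experiment on mouse liver cells. All 8 were found among the 21850 genes of the count table, each in a single row. The libraries fell into 9 conditions of 3 libraries each, all from mice on the C57BL/6 background. Freshly isolated hepatocytes, the parenchymal cells of the liver, were one condition. Their titles call all 3 of them WT, but the genotype field of replicate 3 reads MDR2-het, so that library carries a heterozygous label that the other 26 do not. Hepatocyte organoids (HepOrgs), grown from WT primary hepatocytes in Matrigel and used at passage 2, made up the next 4 conditions. They were kept in HM-Wnt, an expansion medium with EGF, FGF7, FGF10, HGF, gastrin, nicotinamide, R-spondin, the GSK3 inhibitor CHIR99021 and the TGFβ receptor inhibitor A83-01, or moved to MM, a minimal medium without these factors, for 1 week (7 days) or 2 weeks (14 days). Both media held WNT conditioned medium and a ROCK inhibitor. The last 4 conditions were periportal assembloids of WT genotype in MM, in which 10 HepOrgs were aggregated with 1000 dissociated cholangiocytes and with either 250 portal mesenchymal cells (homeostatic) or 2500 (fibrotic-like), and cultured for 1 week (7 days) or 2.5 weeks (18 days). By the study's methods the added cholangiocytes came from organoid cultures and not directly from tissue, and the mesenchyme was sorted as PDGFRα+ SCA1+ cells. The study also reports EPCAM+ events, a very small share of hepatocyte isolations but a substantial minority of the single cells in HepOrg cultures. Duct-type organoids were picked out by hand up to passage 2. The part of such cells in the values below was not tested. The animals were healthy adults of both sexes, and the number of animals behind each library is not given in the sources used here.

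In the liver, hepatocytes and cholangiocytes arise from a common precursor, and duct fate is set next to the portal vein under Notch and TGFβ signals, with SOX9 and SOX4 among the transcription factors that carry it. Mature duct cells present adhesion and surface glycoproteins such as EPCAM, prominin-1 and CD24, secrete osteopontin, and modify bile by moving chloride and water through channels that include CFTR and aquaporin-1. Hepatocytes under injury or in culture can take on part of this programme, and several of the 8 genes are also used by other liver cells, aquaporin-1 by endothelium and osteopontin by macrophages.

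Total counts ran from 30289364 to 65348596 per library, with a median of 43727965, deep enough for low genes to be read. Levels are given as normalised CPM, counts scaled to library size and by TMM factors (a correction for differences in RNA composition), unless another scale is named. The deposited TPM, used as a second scale for differences, were made with a gene length close to the whole gene span, introns included. The 10 hepatocyte markers were read in every condition, but 1 library, replicate 2 of the homeostatic assembloids at 1 week, stood apart. It held 8465 detected genes against 14016 to 16018 in the other 26, and the summed CPM of 10 hepatocyte markers was 2834 there against 100819 and 41090.5 in its fellow replicates. The differences involving it that moved most are also given without it. Nothing in the labels says that replicates came from separate animals or cultures, so the p-values measure the spread between these libraries, and counting intervals cover counting error only. In bulk RNA, fewer cells of a type and less RNA per cell cannot be told apart.

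Positions are on GRCm39, the build that the submitters aligned to, with GENCODE vM39 annotation. Sox9 lies at chr11:112673009-112678586 on the plus strand (canonical transcript of 3 exons and 4176 bases), and Sox4 at chr13:29132902-29137696 on the minus strand in 1 exon. Epcam lies at chr17:87943407-87958557 (plus, 9 exons), Prom1 at chr5:44150962-44259395 (minus, 28 exons) and Cd24a at chr10:43454280-43460264 (plus, 2 exons). Spp1 lies at chr5:104582165-104589235 (plus, 7 exons), Cftr at chr6:18170686-18322767 (plus, 27 exons) and Aqp1 at chr6:55313068-55325540 (plus, 4 exons). The library kit does not mark strand, so reads of 2 genes that overlap cannot be told apart by strand. Sox9 and Sox4 each lie whole within an opposite-strand long noncoding RNA (BC006965 and A330102I10Rik), and Sox4 also within a same-strand one (Gm61652). Same-strand overlaps were also annotated for Prom1 (Gm42716, 22657 bases), Spp1 (Gm42793, 1252 bases) and Cftr (Gm15595, 961 bases). Cd24a shares 1600 bases with the opposite-strand protein-coding gene Mtres1, which had 854 to 2911 counts per library. The counts of Cd24a carry a further uncertainty, since 99.7% of its transcript also matches a copy on chromosome 14 at 90% identity or more. That copy lies within Hs6st3, a gene with 2 to 95 counts per library. For Sox9 that share was 5.53%, against Sox10, which had 0 counts in all 27 libraries. The 6 other members had no such copy.

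The 200 bases before the annotated start are shown for the members whose windows overlap no annotated exon. These members are Spp1 and Sox4, which rose in culture, Aqp1, which fell, and Cftr, which was near or at 0 in most libraries. The windows are read 5′ to 3′ on the strand of the gene from the GRCm39 genome. Capitals mark the letters that matched any of the short motifs named below on either strand, with overlapping matches of 1 motif running together.
Spp1, chr5:104581965-104582164, plus strand: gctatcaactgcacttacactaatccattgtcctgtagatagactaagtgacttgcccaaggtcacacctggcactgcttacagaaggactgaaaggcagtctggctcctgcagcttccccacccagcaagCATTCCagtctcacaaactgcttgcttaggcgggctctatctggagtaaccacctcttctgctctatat
Sox4, chr13:29137697-29137896, minus strand: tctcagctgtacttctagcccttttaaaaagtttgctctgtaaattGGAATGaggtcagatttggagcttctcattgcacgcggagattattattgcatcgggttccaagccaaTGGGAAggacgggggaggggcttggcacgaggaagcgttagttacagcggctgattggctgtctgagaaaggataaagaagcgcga
Aqp1, chr6:55312868-55313067, plus strand: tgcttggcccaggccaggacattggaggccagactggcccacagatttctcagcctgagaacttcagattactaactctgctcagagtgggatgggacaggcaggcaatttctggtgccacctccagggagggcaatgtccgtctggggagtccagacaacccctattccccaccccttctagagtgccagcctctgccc
Cftr, chr6:18170486-18170685, plus strand: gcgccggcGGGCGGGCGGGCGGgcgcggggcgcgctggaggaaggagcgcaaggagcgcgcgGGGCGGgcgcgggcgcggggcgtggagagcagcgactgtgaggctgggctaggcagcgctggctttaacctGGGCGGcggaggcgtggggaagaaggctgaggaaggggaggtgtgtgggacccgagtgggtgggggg
The letters searched were TGGGAA for RBPJ, the DNA-binding partner of Notch, and GGAATG for TEAD, the partner of YAP. Among factors of epithelial identity, the SOX family was searched as ACAAAG and the grainyhead factors (GRHL) as AACCGGTT. The general elements were AP-1 as TGANTCA, the GC box bound by KLF and SP factors as GGGCGG, and the TATA box as TATAAA. Spp1 held 1 TEAD match, on the opposite strand 69 to 64 bases before the start. Sox4 held a TEAD match 154 to 149 bases and an RBPJ match 86 to 81 bases before the start. Among 21770 promoter windows of the same length, 9.48% held the TEAD letters and 18.5% the RBPJ letters, so neither match is rare. The Aqp1 window held no match to any of these motifs. Cftr was rich in G and C, with 77.5% against a median of 54.5% over all windows and 50% in Spp1. Its 5 GC boxes, 3 of them overlapping, are a motif held by 34.8% of windows. The windows of Cd24a (77.5% G and C) and Epcam (74.5%) were similarly rich and also held GC boxes. An AP-1 match, found in 4.93% of windows, was present 41 to 35 bases before the start of Sox9 and 76 to 70 before that of Epcam, whose windows overlap annotated exons and are not printed. No member's window held the SOX, GRHL, HNF1 or TATA letters, which 12.5%, 0.0781%, 4.81% and 9.57% of windows held. A match is a run of letters and says nothing of binding here.

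The first comparison asked how the 8 genes changed between the hepatocytes from which HepOrgs are grown and the organoids themselves. Osteopontin (Spp1), the surface proteins Epcam, Prom1 and Cd24a, and the transcription factor Sox4 were all near 0 or low in fresh hepatocytes and rose by between 5.45 and 8.36 on the log2 scale in all 4 HepOrg conditions. Aqp1 moved the other way and was lost almost completely. Sox9 was already present in fresh hepatocytes and moved little, and Cftr stayed at a few reads per library or none.

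**Figure D1:**
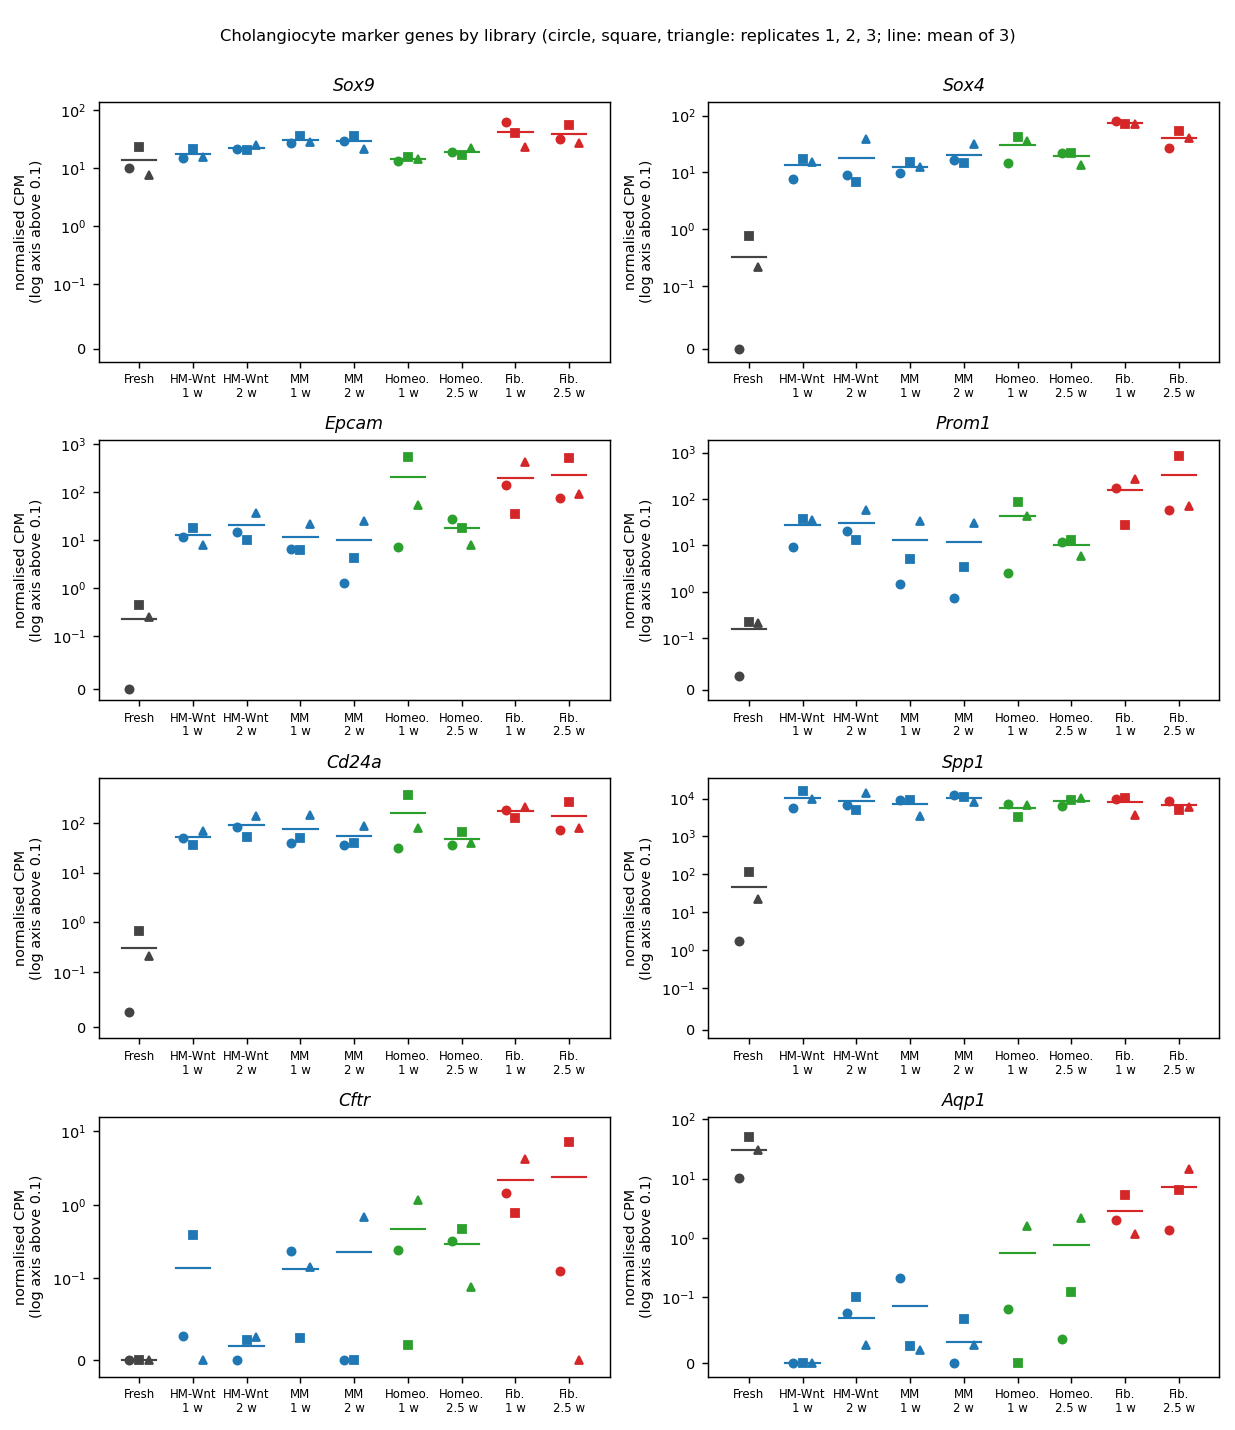
Normalised CPM (log axis above 0.1, linear below) of the 8 cholangiocyte marker genes in each of the 27 libraries, by condition. Circles, squares and triangles are replicates 1, 2 and 3, and each line is the mean of 3. Spp1, Sox4, Epcam, Prom1 and Cd24a are lower in every fresh library than in any other library, Aqp1 is highest on average in fresh hepatocytes, and Sox9 spans the narrowest range of the lower-abundance genes.

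Of the 2 transcription factors, Sox9, a regulator of duct fate that marks the ductal compartment, had 9.83, 22.9 and 7.49 CPM in the 3 fresh libraries. HM-Wnt HepOrgs had 15, 21.6 and 15.4 CPM at 1 week and 21.6, 20.4 and 24.9 CPM at 2 weeks. MM HepOrgs had 27, 35 and 28.2 CPM at 1 week and 29.5, 35.6 and 21 CPM at 2 weeks. Fresh replicate 2 therefore lay within the range of HM-Wnt, and all fresh libraries lay below the MM libraries at 1 week. The log2 fold change over fresh hepatocytes was 0.32 ± 0.34 (SE, n = 3 and 3; edgeR adjusted p = 0.446) in HM-Wnt at 1 week and 0.70 ± 0.34 (edgeR adjusted p = 0.0997) at 2 weeks. In MM it was 1.15 ± 0.34 (edgeR adjusted p = 0.0155) at 1 week and 1.12 ± 0.34 (edgeR adjusted p = 0.0188) at 2 weeks, and both passed the threshold of 0.05. On the TPM scale, with all libraries, HM-Wnt also passed, at 0.93 (limma adjusted p = 0.0145) and 1.58 (limma adjusted p = 0.000334), where the median of all genes was shifted by 0.37 and 0.64. Without fresh replicate 2 the edgeR differences were 0.95 (edgeR adjusted p = 0.00867) and 1.33 (edgeR adjusted p = 0.00107) and both passed, and that library also held the highest summed endothelial (289 CPM) and immune (539 CPM) markers of the 3, whose part in its Sox9 was not tested. The MM calls were as close to the threshold, since leaving out fresh replicate 1 gave 0.996 (edgeR adjusted p = 0.0562) at 1 week and 0.97 at 2 weeks, no longer past it, leaving out fresh replicate 3 gave 0.89 and 0.86, and leaving out MM replicate 2 of the same time gave 1.03 and 0.93. Without fresh replicate 2 they were 1.77 and 1.76.

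Sox4, the second SOX-family factor of duct development, had 0, 0.744 and 0.213 CPM in fresh hepatocytes, 24 reads in all. In HM-Wnt it had 7.58, 16.9 and 15.2 CPM at 1 week and 8.8, 6.81 and 38.9 CPM at 2 weeks. In MM it had 9.81, 15.4 and 12.6 CPM at 1 week and 16.4, 14.4 and 30.9 CPM at 2 weeks. No HepOrg library came near a fresh one. The log2 fold changes were 5.49 ± 0.93, 5.96 ± 0.94, 5.45 ± 0.93 and 6.17 ± 0.94 in the same order of conditions (SE, edgeR adjusted p between 0.000174 and 0.000465). The sizes depend on the few fresh reads, and were 6.90 to 7.64 without fresh replicate 2 and 4.79 to 5.52 without fresh replicate 1, and 4.76 in HM-Wnt at 2 weeks without its replicate 3, all past the threshold.

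Among the surface proteins, Epcam, a homophilic adhesion molecule of duct epithelium, had 0, 0.438 and 0.244 CPM in fresh hepatocytes (18 reads in all). In HM-Wnt it had 11.8, 17.8 and 8.04 CPM at 1 week and 14.6, 9.88 and 37.1 CPM at 2 weeks. In MM it had 6.58, 6.34 and 21.5 CPM at 1 week and 1.27, 4.14 and 24.8 CPM at 2 weeks. The MM libraries at 2 weeks were the most uneven, with replicate 3 the highest in both media at that time. The log2 fold changes over fresh cells were 5.86 ± 1.22, 6.58 ± 1.24, 5.75 ± 1.21 and 5.57 ± 1.21 (SE, edgeR adjusted p between 0.000655 and 0.00265). They were 6.39 to 7.39 without fresh replicate 2 and 4.93 to 5.89 without fresh replicate 1, all past the threshold. Without replicate 3 of the HepOrg group they were 5.85 in HM-Wnt at 2 weeks and 4.98 and 3.76 in MM at 1 and 2 weeks, also past it.

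Prom1 encodes prominin-1 (CD133), a glycoprotein of membrane protrusions used to sort ductal progenitors. It had 0.0266, 0.219 and 0.213 CPM in fresh hepatocytes, 13 reads in all. In HM-Wnt it had 9.32, 37.6 and 34.2 CPM at 1 week and 20, 13.1 and 58.3 CPM at 2 weeks. In MM it had 1.48, 4.96 and 33.3 CPM at 1 week and 0.726, 3.4 and 30.6 CPM at 2 weeks. All HepOrg libraries exceeded all fresh ones, but MM replicates 1 and 2 were several-fold below MM replicate 3 at both times. The log2 fold changes were 7.48 ± 1.70, 7.66 ± 1.71, 6.45 ± 1.67 and 6.27 ± 1.66 (SE, edgeR adjusted p between 0.00218 and 0.00886). The pooled read rate over the 3 libraries was 76.5 times the fresh rate in MM at 2 weeks (95% counting interval 44.6 to 144) and 211 times in HM-Wnt at 2 weeks (123 to 397). On the log2(TPM + 1) scale, where the deposited length of 108413 bases keeps Prom1 values low, the MM change was 0.76 (limma adjusted p = 0.216) at 1 week and 0.62 (limma adjusted p = 0.321) at 2 weeks, and without MM replicate 3 the change was 4.47 (edgeR adjusted p = 0.0365) at 1 week and 3.89 (edgeR adjusted p = 0.0531) at 2 weeks. In HM-Wnt at 2 weeks it was 7.07 without fresh replicate 1 and 6.81 without HM-Wnt replicate 3.

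Cd24a, a small GPI-anchored sialoglycoprotein of epithelial and blood cells, had 0.0266, 0.657 and 0.213 CPM in fresh hepatocytes. In HM-Wnt it had 49.4, 35.7 and 69.5 CPM at 1 week and 81, 52.6 and 136 CPM at 2 weeks. In MM it had 40.2, 49.3 and 141 CPM at 1 week and 35.9, 38.5 and 85.7 CPM at 2 weeks. The lowest HepOrg library stood far above the highest fresh one. The log2 fold changes were 7.55 ± 0.83, 8.36 ± 0.85, 8.14 ± 0.84 and 7.64 ± 0.83, with the lowest adjusted p-values of the members that rose (SE, edgeR adjusted p between 5.04e-06 and 1.43e-05). They were 8.74 to 9.54 without fresh replicate 2, 6.94 to 7.72 without fresh replicate 1, and 7.42 in MM at 1 week without its replicate 3, all past the threshold.

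Spp1, the secreted matrix phosphoprotein osteopontin, was the most abundant member outside fresh hepatocytes. The fresh libraries held 1.73, 118 and 21.7 CPM, an order that followed their summed immune markers (52.4, 539 and 203 CPM), and the part of other cells in these fresh values was not tested. In HM-Wnt it had 5568, 15431 and 9893 CPM at 1 week and 6869, 5063 and 13648 CPM at 2 weeks. In MM it had 9110, 9237 and 3471 CPM at 1 week and 12082, 11140 and 8216 CPM at 2 weeks. The lowest HepOrg value was far above the highest fresh value. The log2 fold changes were 7.73 ± 1.23, 7.47 ± 1.22, 7.27 ± 1.21 and 7.82 ± 1.24 (SE, edgeR adjusted p between 0.000211 and 0.000393). Fresh replicate 2, with most of the fresh Spp1, set their size, and without it they were 9.27 to 9.84. In the 4 comparisons 8, 7, 7 and 5 of 9 tested immune markers, which include those of macrophages, fell, and the 1 that rose each time was Cd68, a lysosomal membrane protein. Summed immune markers were 7.54 to 71 CPM in 11 of the 12 HepOrg libraries but 757 CPM in MM replicate 3 at 2 weeks, above every fresh library, and their part in the Spp1 of that library (8216 CPM) was not tested.

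The 2 transport genes behaved unlike the rest. Aqp1, the water channel of duct epithelium and of endothelium, had 10.3, 50.2 and 30.1 CPM in fresh hepatocytes (2521 reads). The HM-Wnt HepOrgs had no read in any library at 1 week, and 0.0756, 0.101 and 0.0284 CPM at 2 weeks. The MM HepOrgs had 0.214, 0.027 and 0.0203 CPM at 1 week and 0, 0.0679 and 0.0283 CPM at 2 weeks. All fresh libraries were above all HepOrg libraries. Over all genes 25.5% and 28.4% were separated in that direction in HM-Wnt at 1 and 2 weeks, and 26% and 26.4% in MM. Against the floor of 3 counts over the 3 libraries, Aqp1 was at least 1046-fold lower in HM-Wnt at 1 week than in fresh cells (edgeR adjusted p = 1.14e-05). In the other 3 HepOrg conditions the log2 fold change was -8.73 ± 0.92, -8.32 ± 0.88 and -9.67 ± 0.99 (SE, edgeR adjusted p between 1.68e-05 and 2.73e-05), on 8, 13 and 4 reads. It was -10.17 in MM at 1 week without MM replicate 1, which held 11 of the 13 reads, and at 2 weeks -10.8 without MM replicate 2 and -9.08 without fresh replicate 2. Endothelial markers moved with it. Their summed level in the fresh libraries was 58, 289 and 230 CPM, in the same order as Aqp1, against 0.930 to 13.6 CPM over the 12 HepOrg libraries, and 8 of 8 endothelial markers tested fell in each of the 4 comparisons. The part of endothelial RNA in the fresh Aqp1 level was not tested.

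Cftr, the apical chloride and bicarbonate channel that drives ductular secretion, had no read in any fresh library, which allows up to 0.0322 CPM over the 3. HepOrg libraries held between 0 and 24 reads, the highest level being 0.679 CPM in MM replicate 3 at 2 weeks, and 4 of the 12 held none. In MM at 1 week the libraries held 12, 1 and 7 reads, all above the fresh libraries, with a mean of 0.134 CPM. The gene did not pass the filter on low counts, so no difference in HepOrgs was tested.

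**Figure D2:**
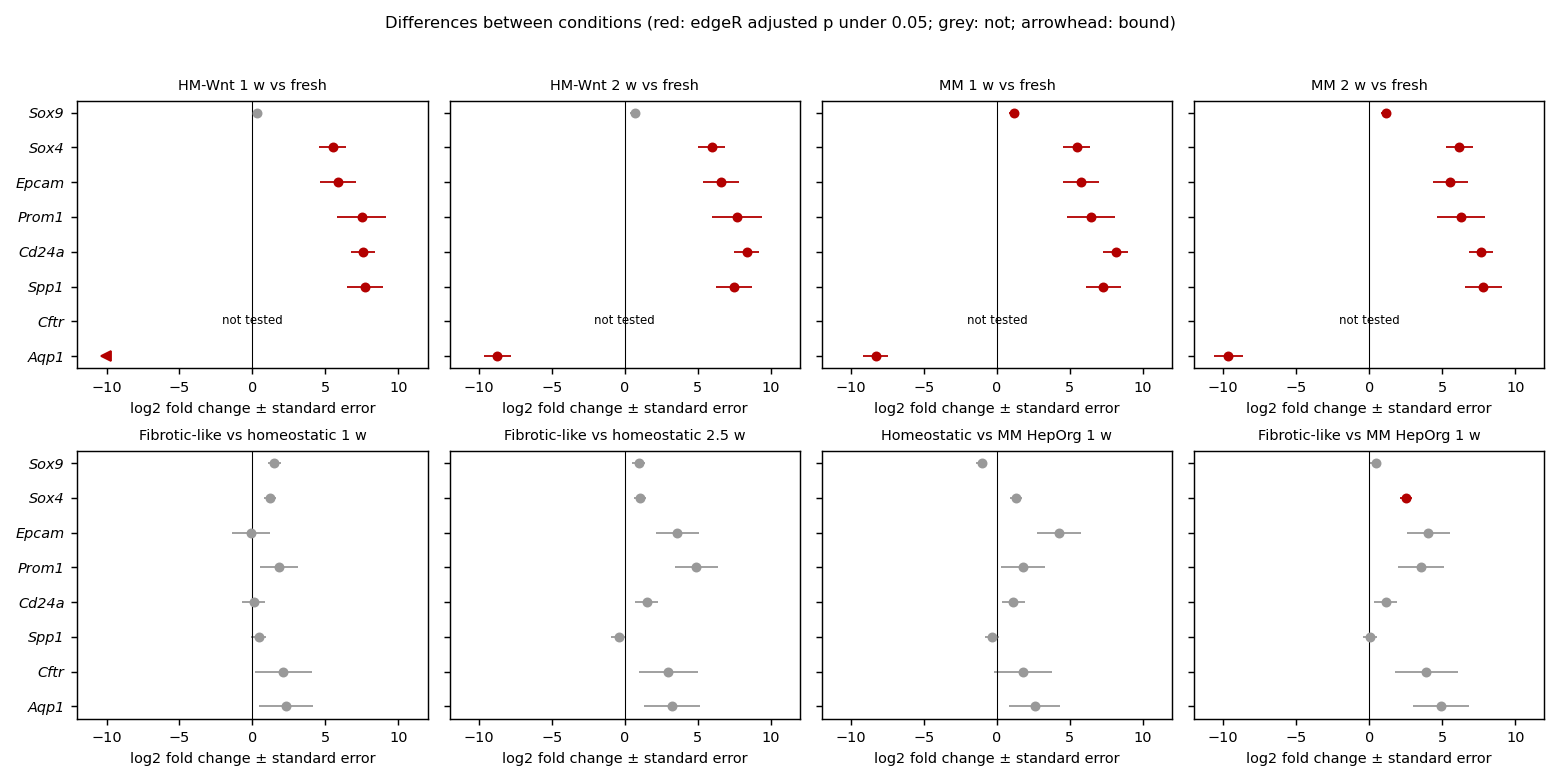
Log2 fold change ± SE of each member in 8 comparisons, from edgeR, with adjusted p under 0.05 in red. An arrowhead marks the Aqp1 bound of at least 1046-fold lower. The upper panels show 5 members well to the right, Aqp1 to the left and Sox9 near 0, and in the lower panels, which compare assembloids, Sox4 in fibrotic-like assembloids against MM HepOrgs is the 1 red point.

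Of the 7 members tested, 6 passed in HM-Wnt at 1 week (5 higher, 1 lower), where 49.7% of all genes tested passed (24.9% higher, 24.8% lower). The same count was reached in HM-Wnt at 2 weeks, where 51.8% of genes passed (26.1% higher, 25.7% lower). In MM all 7 tested members passed (6 higher, 1 lower), against 42.8% of genes at 1 week (21.5% higher, 21.3% lower) and 39.7% at 2 weeks (19.7% higher, 20% lower). With shares of this size over all genes, the counts of members alone say little. The median log2 fold change of the members was 5.86, 6.58, 5.75 and 6.17, while that of all genes tested lay between -0.0093 and 0.032. Libraries of the groups did not overlap for 5 members in the higher direction in HM-Wnt at both times and in MM at 2 weeks, and for 6 in MM at 1 week. Over all genes 29% (HM-Wnt, 1 week), 32.7% (HM-Wnt, 2 weeks), 28% (MM, 1 week) and 25.6% (MM, 2 weeks) were separated in that direction. The 4 comparisons share the same 3 fresh libraries and are not independent of each other. Deposited TPM shifted the median of all genes upwards by 0.37, 0.64, 0.46 and 0.41 on the log2 scale relative to TMM, a shift well below the changes of Sox4, Epcam, Cd24a and Spp1.

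Other genes of biliary epithelium, a list of 21 of which 19 could be tested, gave a similar picture with more exceptions. In HM-Wnt 11 and 13 rose and 2 and 3 fell at 1 and 2 weeks, and in MM 12 rose and 1 fell at either time. The medians were 4.82, 5.11, 4.23 and 4.84 on the log2 scale. Cldn4, a tight junction protein, rose by 8.66, 9.73, 9.10 and 8.37 on the log2 scale. The bile acid transporter gene Slc10a2 went the other way and fell by 1.10, 2.18, 1.05 and 1.37, and Pkhd1, which encodes fibrocystin of the primary cilium, fell by 1.54 in HM-Wnt at 2 weeks. Krt19, the keratin by which ducts are usually stained, had a mean of 0.419 CPM in fresh cells and 3.73 to 11.1 CPM in HepOrgs. Its rise passed in 3 of the 4 conditions (log2 fold change 3.19, 4.78, 4.25 and 3.94, edgeR adjusted p = 0.0531 for the first). Krt7 passed only in HM-Wnt at 2 weeks, by 4.58 (edgeR adjusted p = 0.0492). Of 9 mesenchymal markers 1, 2, 2 and 2 rose and none fell. Over the same comparisons 4, 7, 6 and 7 of 10 hepatocyte markers fell and 1, Hpx, rose in MM at 2 weeks, and the summed hepatocyte markers stayed between 23199 and 70836 CPM in HepOrgs against 69969 to 130954 CPM in fresh hepatocytes.

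A second comparison asked whether the change from HM-Wnt to MM, or longer culture, moved the members within HepOrgs. Of the 6 that could be tested none passed with edgeR (Cftr and Aqp1 were too low), while 2.98% of genes passed at 1 week (1.76% higher in MM, 1.22% lower) and 11.5% at 2 weeks (6.84% higher, 4.61% lower). Sox9 came closest. At 1 week its MM libraries (27 to 35 CPM) did not overlap its HM-Wnt libraries (15 to 21.6 CPM), as held for 12.7% of all genes in that direction, and the log2 fold change was 0.82 ± 0.22 (SE, n = 3 and 3; edgeR adjusted p = 0.0633, unadjusted below 0.05 for this member alone). At 2 weeks no member reached an unadjusted p under 0.05, and Sox9 differed by 0.43 ± 0.22. The surface genes had lower means in MM at 2 weeks, by -1.001 ± 0.87 for Epcam, -1.38 ± 1.23 for Prom1 and -0.70 ± 0.51 for Cd24a, all within the spread between replicates. Spp1 differed by -0.46 and 0.37 and Sox4 by -0.05 and 0.23 at 1 and 2 weeks, and their libraries overlapped. The sign for Sox4 at 1 week turned on the TPM scale (0.10).

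Same-numbered HepOrg libraries deviated together, so the media were also compared within replicate number. In that blocked fit Sox9 was higher in MM at 1 week (0.82, edgeR adjusted p = 0.0292), and at 2 weeks Prom1 was lower in MM by 2.41 (edgeR adjusted p = 0.0478) and Cd24a by 0.71 (edgeR adjusted p = 0.0455). Replicate 3 was the highest of its group for Epcam, Prom1 and Cd24a in both media at 2 weeks and in MM at 1 week. Without replicate 3 of MM at 2 weeks, Epcam fell by 2.82 in MM (edgeR adjusted p = 0.042). DESeq2 also called Sox9 at 1 week (adjusted p = 0.0113). Between 1 and 2 weeks within a medium, and for the difference between the media effects at the 2 times, edgeR and DESeq2 called 0 members and none had an unadjusted p under 0.05. With the replicate block edgeR likewise called 0 members in all 3, and 1 member, Cd24a, had an unadjusted p under 0.05, for its higher level at 2 weeks in HM-Wnt (0.75, edgeR adjusted p = 0.184) and for the difference between the media effects (-1.14, edgeR adjusted p = 0.196). Cd24a was higher at 2 weeks than at 1 week in every same-numbered pair in HM-Wnt and lower in every pair in MM. Of all genes, 0% passed in HM-Wnt, 0.0154% in MM and 0% for the difference, while 1134, 1337 and 951 genes had an unadjusted p under 0.05 and DESeq2 called 22, 308 and 46. Of the other biliary genes only Pkhd1 passed between media, being 2.25 higher in MM at 2 weeks on the log2 scale (edgeR adjusted p = 0.0291).

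The third comparison set assembloids, which hold added cholangiocytes and mesenchyme, against MM HepOrgs of the same medium and culture time, 1 week. Sox4 was the member that passed. It had 79.2, 72 and 70.8 CPM in fibrotic-like assembloids against 9.81, 15.4 and 12.6 CPM in MM HepOrgs. The assembloid values were close together and did not overlap those of the organoids. The log2 fold change was 2.51 ± 0.43 (SE, n = 3 and 3; edgeR adjusted p = 0.0262), in a comparison where 0.751% of genes passed (0.361% higher, 0.389% lower). This call did not outlast the removal of a library: leaving out any 1 of the 6 kept the difference between 2.36 and 2.68, with edgeR adjusted p-values from 0.0535 to 0.115.

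The other members were higher on average in fibrotic-like assembloids but were scattered. Epcam had 138, 35.6 and 416 CPM against 6.58, 6.34 and 21.5 CPM (log2 fold change 4.05 ± 1.5, edgeR adjusted p = 0.144). Aqp1 had 1.99, 5.41 and 1.15 CPM against 0.214, 0.027 and 0.0203 CPM (4.93 ± 1.90, edgeR adjusted p = 0.157). Cftr had 133, 50 and 312 reads, or 1.43, 0.769 and 4.27 CPM, against 12, 1 and 7 reads (3.91 ± 2.14, edgeR adjusted p = 0.321). The calls for these genes varied with the method. Epcam passed with DESeq2 (adjusted p = 0.0131), on the TPM scale with limma (adjusted p = 0.0498), with edgeR on only the 2 groups compared (adjusted p = 0.031) and with limma-voom (adjusted p = 0.000105). Aqp1 passed in the same 4, with adjusted p-values of 0.0191, 0.0314, 0.0245 and 0.00698. For Epcam, Aqp1 and Cftr, as for Sox4, every assembloid library lay above every MM HepOrg library, which was also true of 27% of all genes. Prom1 (174, 27.6 and 273 CPM, difference 3.54 ± 1.60) and Cd24a (183, 123 and 207 CPM, difference 1.12 ± 0.78) overlapped with MM HepOrgs because of MM replicate 3. Spp1 (0.08 ± 0.48) and Sox9 (0.44 ± 0.37) overlapped as well. Of the 21 other biliary genes only Bicc1, an RNA-binding protein of tubular epithelia, passed (2.51, edgeR adjusted p = 0.0307), while Krt19 (5.76 ± 1.68) and Krt7 (7.29 ± 2.16) had edgeR adjusted p-values of 0.0854 and 0.087.

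In homeostatic assembloids at 1 week no member passed against MM HepOrgs, nor did any of the 14386 genes tested (0%), with edgeR. At an unadjusted p under 0.05 there were 3 members and 2250 genes, and DESeq2 called Epcam (4.21, adjusted p = 0.0176) and Sox4 (1.29, adjusted p = 0.0398). Epcam had 7.22, 549 and 52.9 CPM and was 4.25 ± 1.51 higher on the log2 scale (edgeR adjusted p = 0.19), but 1.38 higher (edgeR adjusted p = 0.664) without replicate 2, the library that stood apart. Sox4 had 14.7, 41 and 36 CPM (1.32 ± 0.41, edgeR adjusted p = 0.158), and passed only without homeostatic replicate 1 (1.66, edgeR adjusted p = 0.0232). Epcam and Sox4 libraries overlapped with those of MM HepOrgs through replicate 1, which was low for both. Sox9 went down instead. Its homeostatic libraries, at 13.1, 15.3 and 14.2 CPM, all lay below the MM HepOrgs (27, 35 and 28.2 CPM), by -1.04 ± 0.38 (edgeR adjusted p = 0.194), as did the libraries of 13.7% of all genes. The 2 assembloid comparisons share the MM HepOrg libraries.

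The fourth comparison asked how 2500 in place of 250 mesenchymal cells, with the same number of added cholangiocytes, altered the members. With edgeR, 0 of 8 members and 0 of 14253 genes (0%) passed at 1 week or at 2.5 weeks, with 2 and 4 members and 2012 and 944 genes at an unadjusted p under 0.05. The log2 fold change was positive for 7 of 8 members at either time, with medians of 1.36 and 2.24, where all genes had medians of 0.20 and 0.029. Without fibrotic-like replicate 2 the median at 2.5 weeks was 0.73, with 6 of 8 positive. The negative values were those of Epcam at 1 week and Spp1 at 2.5 weeks. Their sign turned on the TPM scale (1.65 and 0.17), but that scale shifted the median of all genes by 0.67 and 0.38, more than the value of Spp1 itself.

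At 1 week the 2 SOX factors were the members without overlap between the ratios, where 18.6% of all genes were separated in that direction. Sox9 had 62.4, 40.6 and 23.2 CPM in fibrotic-like assembloids against 13.1, 15.3 and 14.2 CPM in homeostatic ones, a log2 fold change of 1.504 ± 0.42 (SE, n = 3 and 3; edgeR adjusted p = 0.273). Sox4 had 79.2, 72 and 70.8 CPM against 14.7, 41 and 36 CPM, or 1.22 ± 0.42 (edgeR adjusted p = 0.295). All values of both genes were thus higher with more mesenchyme, with the least separation in Sox9 at replicate 3. DESeq2 called Sox9 (1.47, adjusted p = 0.0255), and limma-voom with sample quality weights, added after the data were seen, called Sox9 (1.95, adjusted p = 0.0113), Sox4 (1.46, adjusted p = 0.0163) and Cd24a (1.51, adjusted p = 0.0473). Without replicate 2 of the homeostatic group, the library that stood apart, Sox9 passed with edgeR too (1.56, adjusted p = 0.0481). The same library turned the sign of Epcam, which was -0.11 ± 1.33 with it and 2.66 without it. Its own values were high for the surface genes, so that the homeostatic mean at 1 week went from 203 to 30.04 CPM for Epcam, from 156 to 55.7 CPM for Cd24a and from 43.3 to 22.2 CPM for Prom1 on leaving it out, and from 5731 to 7010 CPM for Spp1.

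At 2.5 weeks the surface genes joined them. Epcam had 73.9, 502 and 89.9 CPM in fibrotic-like assembloids against 27.2, 17.9 and 7.81 CPM in homeostatic ones (3.61 ± 1.47, edgeR adjusted p = 0.742). Prom1 had 58.6, 839 and 71 CPM against 11.9, 13 and 6.01 CPM (4.91 ± 1.46, edgeR adjusted p = 0.713). Cd24a had 71.5, 266 and 79.5 CPM against 36.1, 66.3 and 39.2 CPM (1.51 ± 0.80, edgeR adjusted p = 0.817). Each fibrotic-like library exceeded each homeostatic one, and replicate 2 was several times higher than the others. Sox9 had 32.1, 54.7 and 27.2 CPM against 18.7, 16.5 and 22.3 CPM (0.95 ± 0.42), and Sox4 had 27.3, 54.3 and 40.7 CPM against 22.3, 21.5 and 13.6 CPM (1.05 ± 0.42). These 5 members were separated between the ratios, as were 21.7% of all genes in that direction and 15.3% in the other. DESeq2 called Prom1 alone (4.92, adjusted p = 0.00795). Without fibrotic-like replicate 2 the change of Prom1 was 2.62, that of Epcam 2.19, that of Cd24a 0.65 and that of Sox9 0.60, none past the threshold with edgeR.

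The transport genes and Spp1 did not separate at either time. Cftr reads in fibrotic-like assembloids at 2.5 weeks came almost wholly from replicate 2, with 6, 383 and 0 reads. Aqp1 had 1.39, 6.38 and 14.4 CPM against 0.0376, 0.123 and 2.15 CPM in homeostatic assembloids (3.23 ± 1.92, edgeR adjusted p = 0.859). The Cftr difference, 2.98 ± 2.03 (edgeR adjusted p = 0.922), thus rested on 1 library and was -2.28 without it, and Aqp1 replicate 1 of the fibrotic-like group lay below replicate 3 of the homeostatic one. The summed endothelial markers were 55.4 to 107 CPM in the fibrotic-like group against 8.43 to 14.6 CPM. Of the 8 markers 4 could be tested, of which 2 had a positive difference and 0 passed. Over the 12 assembloid libraries Aqp1 correlated at 0.36 with this sum. With the mesenchymal sum it was 0.59, with the immune sum 0.80 and with the sum of the other biliary genes 0.11. The part of other cells in Aqp1 was not tested. Spp1 differed by 0.41 ± 0.51 at 1 week and -0.40 ± 0.51 at 2.5 weeks. The 21 other biliary genes had a median of -0.10 at 1 week, with 10 of 21 positive, and of 2.11 at 2.5 weeks, with 21 of 21 positive. Without homeostatic replicate 2 the median at 1 week was 1.88, with 19 of 21 positive, and without fibrotic-like replicate 2 that at 2.5 weeks was 1.23, with 18 of 21 positive. None of them passed with edgeR in these fits.

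Between 1 and 2.5 weeks edgeR called 0 members and 0% of genes in homeostatic and in fibrotic-like assembloids, and likewise for the difference between the 2 time courses. DESeq2 and limma-voom called 0 members in all 3, and with edgeR 1 member, Epcam in homeostatic assembloids, had an unadjusted p under 0.05 (log2 difference -3.53, but -0.76 and no such p without homeostatic replicate 2 of 1 week), as had 936, 121 and 278 genes. Sox9 was higher at 2.5 weeks than at 1 week in homeostatic assembloids without overlap (18.7, 16.5 and 22.3 CPM against 13.1 to 15.3 CPM), as were 4.93% of genes. Sox4 was lower at 2.5 weeks in fibrotic-like assembloids without overlap (27.3 to 54.3 CPM against 70.8 to 79.2 CPM), as were 8.24% of genes. For the later times, assembloids at 18 days and MM HepOrgs at 14 days had different culture times and are set side by side only. Mean Sox4 was 19.1 ± 4.78 (SD, n = 3) CPM in homeostatic and 40.8 ± 13.5 CPM in fibrotic-like assembloids against 20.6 ± 9.02 CPM in HepOrgs. Mean Epcam was 17.6 ± 9.68 and 222 ± 243 CPM against 10.1 ± 12.8 CPM.

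Within the assembloids, the surface genes varied from library to library together with the balance of hepatocyte and duct transcripts. The summed hepatocyte markers were 100819, 2834 and 41090.5 CPM in the homeostatic libraries at 1 week and 20873, 24780 and 3231 CPM in the fibrotic-like ones. At 2.5 weeks they were 64338, 67374 and 66691 CPM in homeostatic and 51984, 12016 and 54790 CPM in fibrotic-like assembloids. The 3 libraries lowest in hepatocyte markers, homeostatic replicate 2 and fibrotic-like replicate 3 at 1 week and fibrotic-like replicate 2 at 2.5 weeks, were the 3 highest in Epcam (549, 416 and 502 CPM) and held 7070, 5764 and 4881 CPM of the 21 other biliary genes, against 252 to 1802 CPM in the other 9. Over the 12 libraries the correlation of log2 levels with summed hepatocyte markers was -0.90 for Cd24a, -0.87 for Epcam, -0.71 for Prom1, -0.67 for Sox4, -0.18 for Sox9 and 0.75 for Spp1. With the sum of the other biliary genes it was 0.99 for Epcam, 0.92 for Cd24a, 0.90 for Prom1, 0.71 for Sox4, 0.33 for Sox9 and -0.76 for Spp1. With summed mesenchymal markers it was 0.79 for Sox4, 0.72 for Sox9 and for Cd24a, 0.71 for Prom1, 0.66 for Epcam and -0.14 for Spp1. Sox9 thus had a higher value with the mesenchymal than with the biliary sum, while the 2 values of Sox4 were close. Differences between these correlations were not tested. These values are descriptions. All levels of a library share its depth and its total, 3 of them lie far from the rest, and added mesenchyme differs between the ratios as well, with summed mesenchymal markers of 125 to 1975 CPM in homeostatic and 660 to 5357 CPM in fibrotic-like assembloids. Spp1, though used as a duct marker, thus ran with hepatocyte transcripts and opposite to Epcam in these 12 libraries. Whether this came from the share of duct cells in each library was not tested.

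**Figure D3:**
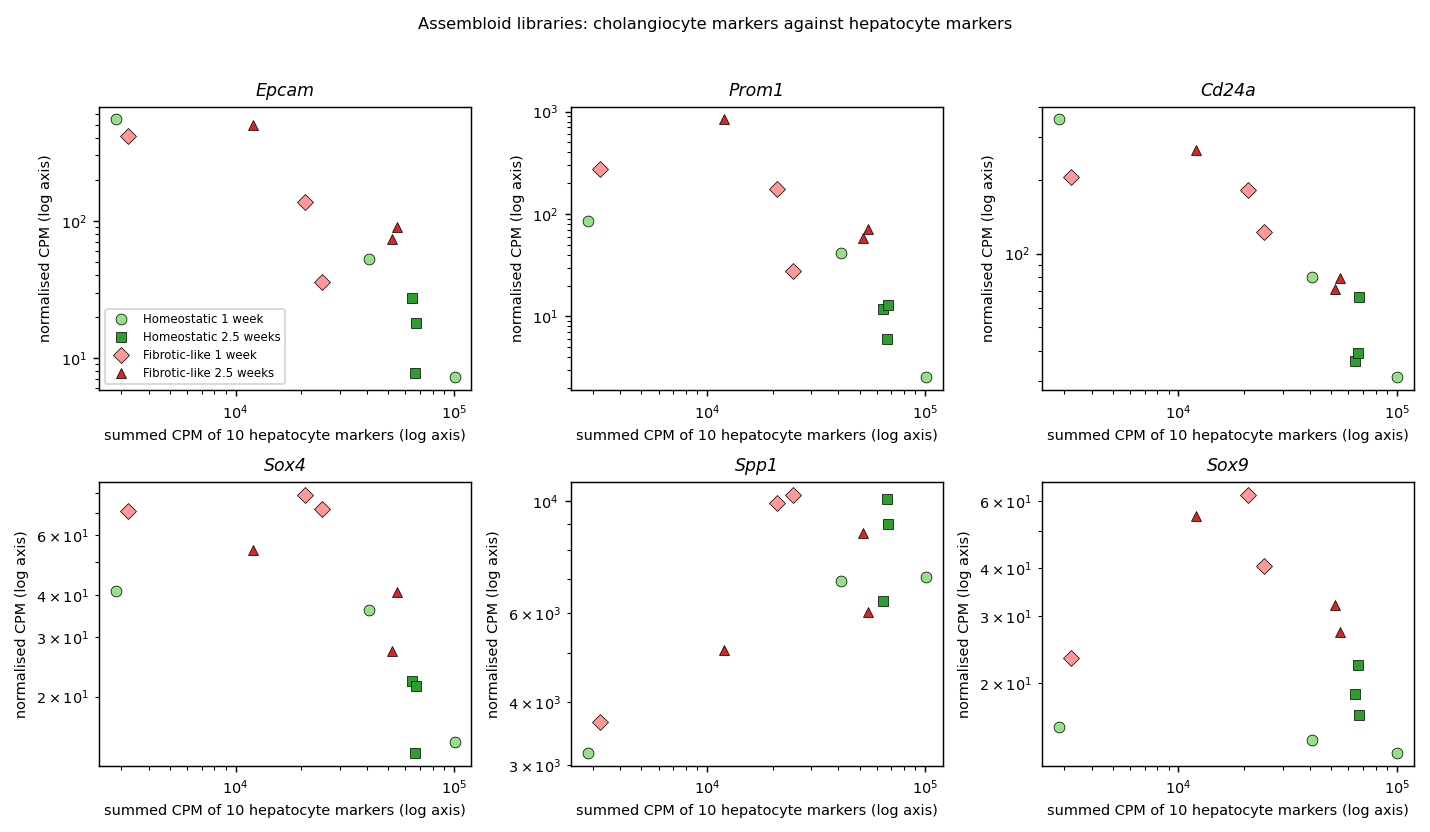
Normalised CPM (log axis) of 6 members against the summed CPM of 10 hepatocyte markers (log axis) in the 12 assembloid libraries, with symbols for ratio and time. Epcam, Prom1 and Cd24a fall from left to right, Spp1 is lowest in the 3 libraries with the least hepatocyte RNA, and Sox9 shows no single slope.

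Members also tracked one another. Taken as deviations from the mean of each condition, Epcam and Prom1 correlated at 0.93 over the 12 assembloid libraries and at 0.89 over the 12 HepOrg libraries, Epcam and Cd24a at 0.91 and 0.72, and Prom1 and Cd24a at 0.88 and 0.82. Epcam and Spp1 gave -0.81 in assembloids and -0.15 in HepOrgs. Sox4 went with all of these surface genes, at 0.79 with Epcam, 0.83 with Prom1 and 0.79 with Cd24a in assembloids and at 0.57, 0.61 and 0.55 in HepOrgs, and Cftr went with Epcam in HepOrgs (0.73) more than in assembloids (0.25). Differences between the systems were not tested. The libraries of a system share medium or added cells, and no p is given.

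**Figure D4:**
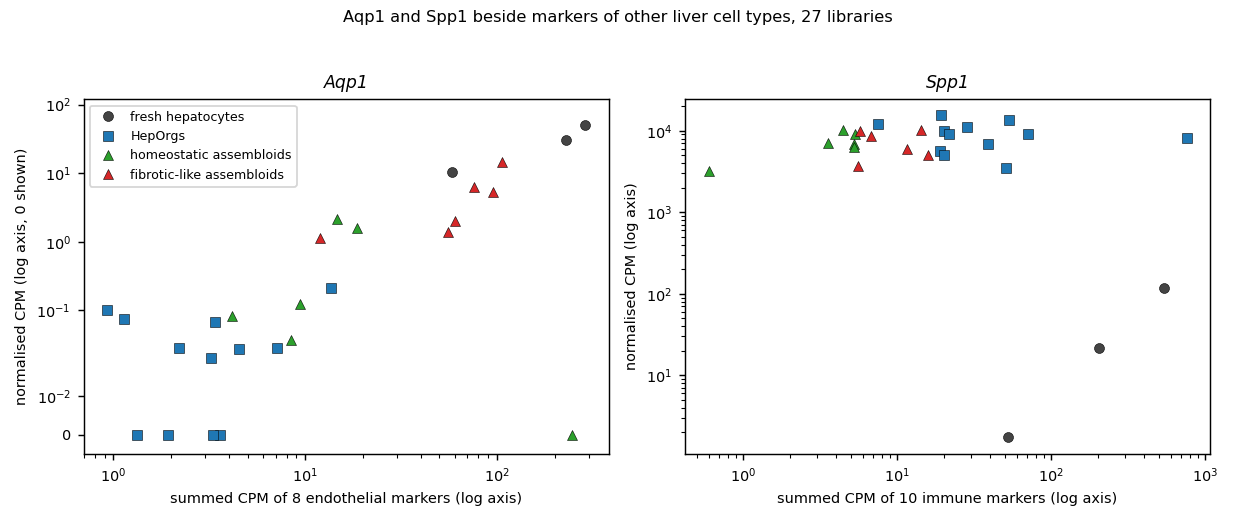
Left, normalised CPM of Aqp1 (log axis, 0 shown) against the summed CPM of 8 endothelial markers. Right, normalised CPM of Spp1 against the summed CPM of 10 immune markers, both for 27 libraries. Aqp1 was high in the fresh libraries, which were rich in endothelial markers. It was 0 in homeostatic replicate 2 at 1 week, the library that stood apart, where these markers summed to 247 CPM. Kdr, Lyve1 and Clec4g had no read in that group, and the part of endothelial RNA in this sum was not tested. Spp1 was high in libraries with 0.597 to 757 CPM of immune markers.

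Over the 9 conditions, the order of mean levels differed by gene, and few neighbours in it were apart. Sox9 ran from 42 ± 19.6 CPM (SD, n = 3) in fibrotic-like assembloids at 1 week down to 13.4 ± 8.33 CPM in fresh hepatocytes, with MM HepOrgs (30.1 and 28.7 CPM) above HM-Wnt HepOrgs and homeostatic assembloids, and all 8 neighbouring pairs had overlapping ranges. Epcam, Prom1 and Cd24a were highest in fibrotic-like assembloids, at 222 ± 243 and 323 ± 447 CPM at 2.5 weeks and 171 ± 43 CPM at 1 week, and Spp1 in MM HepOrgs at 2 weeks, at 10479 ± 2016 CPM. In each of these 4 genes only the last step, down to fresh hepatocytes, was free of overlap. Sox4 had a second such step, from fibrotic-like assembloids at 1 week (74 ± 4.54 CPM) to those at 2.5 weeks (40.8 ± 13.5 CPM). Aqp1 was highest in fresh hepatocytes (30.2 ± 20 CPM), followed by fibrotic-like assembloids at 2.5 weeks (7.38 ± 6.54 CPM) and at 1 week (2.85 ± 2.26 CPM), and Cftr was highest in fibrotic-like assembloids (2.44 ± 4.11 and 2.16 ± 1.86 CPM at 2.5 and 1 week). In both every neighbouring pair overlapped.

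Levels of different genes can be compared only per length. The gene lengths behind the deposited TPM were 83.9% to 100% of the gene span over the 8 members. They were 27.3 times the canonical transcript in Prom1 but equal to it in the single-exon Sox4. Levels between genes are therefore given as normalised CPM per kilobase of canonical transcript, a scale chosen after the data were seen. Whether the deposited counts include intron reads was not tested. If they do, this scale overstates genes with long introns, such as Prom1, against Sox4. In fresh hepatocytes Spp1 (21.1 ± 27.8 CPM per kilobase, SD, n = 3), Aqp1 (10.1 ± 6.7) and Sox9 (3.21 ± 1.99) led, and the other 5 were between 0 and 0.164. In HM-Wnt HepOrgs at 1 week Spp1 stood at 4620 ± 2218 CPM per kilobase, followed by Cd24a at 28.4 ± 9.36, Epcam at 7.19 ± 2.81, Prom1 at 6.83 ± 3.9, Sox9 at 4.15 ± 0.876, Sox4 at 2.76 ± 1.04 and Cftr at 0.022 ± 0.0342, with Aqp1 at 0. The surface genes thus stood above the SOX factors there by mean level, a difference that was not tested. The order down to Sox4 was the same in HM-Wnt at 2 weeks, where Aqp1 (0.0229) stood above Cftr (0.00283), but not in MM. In MM HepOrgs Sox9 (7.2 at 1 week and 6.87 at 2 weeks) stood above Epcam (6.58 and 5.76) and Prom1 (3.34 and 2.92), and below Cd24a (42.3 and 29.3). In fibrotic-like assembloids at 1 week Spp1 had 3566 ± 1673 CPM per kilobase, Epcam 113 ± 113, Cd24a 94 ± 23.6, Prom1 39.9 ± 31.1, Sox4 15.4 ± 0.948, Sox9 10.1 ± 4.7, Aqp1 0.958 ± 0.758 and Cftr 0.342 ± 0.295. Spp1 led in every condition.

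Genes whose pattern over the 27 libraries was most like a member's were taken by the Pearson correlation of log2 CPM, among genes passing the filter, as a description. They were Sema3c (0.97), Cacnb3 and Enah (0.96 each) for Epcam, Pglyrp1 (0.95), Spint1 (0.94) and Klf5 (0.93) for Prom1, and Slc25a24 (0.99), Tagln2 and Anxa2 (0.98 each) for Cd24a. For Spp1 they were Cd63 (0.97), Pdzrn3 and Reep5 (0.96 each), and for Sox4 Golm1, Smim3 and Slc25a24 (0.96 each). For Sox9 they were Loxl2 (0.81), Steap2 (0.79) and Scn7a (0.76), and for Cftr Dclk1, Pla2g2d and Rgs17 (0.82 each), the lowest values of the set. For Aqp1 they were Pth1r (0.94), Ehd3 (0.93) and Gngt2 (0.91). Fresh hepatocytes lie far from the other conditions for most genes, and these correlations rest in part on that contrast.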

How the data were processed

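Bulk RNA was measured in 27 mouse libraries of 9 conditions, 3 libraries each. Per the labels and the study's methods, RNA was taken up with a column kit, full-length cDNA was made by SMARTseq2, paired-end Nextera libraries were sequenced, and reads were aligned with STAR to GRCm39 and counted per gene. The authors deposited raw counts and TPM per gene and library, the latter with gene lengths close to the whole gene span, in 1 table, which also holds 10 libraries not used here. Groups came from the sample titles. The members and marker lists were chosen with earlier results of these data known.

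From the deposited counts, library factors (TMM) and quasi-likelihood tests were computed with edgeR 4.0.16 in R 4.3.3, with Benjamini-Hochberg adjustment over all genes tested and a threshold of 0.05, after a filter (minimum count 10, minimum total 15). Fresh hepatocytes and HepOrgs, HepOrgs alone, assembloids alone, and HepOrgs with assembloids were separate fits. Rows of the reporters eGFP and tdTomato stayed out of tests and library sizes (at most 0.108% of counts). Library depth was 30289364 to 65348596 counts. Steps were tested on simulated data.

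Alternatives were DESeq2 1.42.0, no filter, limma 3.58.1 on log2(deposited TPM + 1) for genes with TPM of 1 or more in 3 libraries, other sets of libraries in the fit, a replicate block, each library left out, and limma-voom with sample quality weights, the last chosen after seeing the data. The replicate numbers come from the titles. Same-numbered HepOrg libraries deviated together in 18 of 18 pairs (correlation of deviations 0.127 to 0.503), so blocked values stand beside the medium comparison where they change a call. The pairs were 19 of 30, 6 of 18 and 11 of 45 over 0.1 in the other fits, which were taken as unpaired.

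Named genes were the 8 members, Krt7 and Krt19, up to 2 other biliary genes with the highest and 2 with the lowest change past the threshold in a comparison, and the 3 genes most like each member, leaving out the other members and unnamed genes. A few of the genes this rule names are not reported here. Copies of members were searched with blastn 2.17.0 (90% identity, 100 bases or more).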

Additional observations from a re-analysis of the deposited data

Results flagged for a closer look

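Reporter transcripts, which were outside the comparisons above, were read in the assembloid libraries. By the study's methods the added cholangiocytes generally carried nuclear tdTomato and the added mesenchyme H2B-GFP. The highest tdTomato level in an assembloid library was 104 CPM, in homeostatic replicate 3 at 1 week, and the highest eGFP level was 557 CPM, in fibrotic-like replicate 3 at 1 week. Both drew attention because libraries without added cells had no such reads, except for 1 eGFP read in HM-Wnt replicate 2 at 2 weeks. In homeostatic assembloids at 1 week tdTomato was at 0.248, 4.44 and 104 CPM while Epcam was at 7.22, 549 and 52.9 CPM. The library highest in Epcam was therefore not the one highest in tdTomato. In fibrotic-like assembloids at 2.5 weeks tdTomato was at 5.19, 29.7 and 77.2 CPM while Epcam was at 73.9, 502 and 89.9 CPM. Homeostatic assembloids at 2.5 weeks had 1.62, 1.07 and 66.5 CPM of tdTomato and 27.2, 17.9 and 7.81 CPM of Epcam. Fibrotic-like ones at 1 week had 13.6, 1.64 and 6.69 CPM of tdTomato and 138, 35.6 and 416 CPM of Epcam. The highest library thus differed between the 2 genes in each group. Reporter levels also went with replicate number. eGFP rose from replicate 1 to replicate 3 in every assembloid group, as with 0.634, 8.80 and 88.9 CPM in homeostatic ones at 1 week. tdTomato was highest in replicate 3 in every group except fibrotic-like assembloids at 1 week. The part of added cholangiocytes in Epcam was not tested.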

How the results depend on the processing

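Of 352 alternative values for the 27 member results past the threshold, 334 stayed past it in the same direction, 18 no longer passed and 0 reversed. For 45 results not past it, 544 of 610 alternative values did the same, 36 passed and 30 reversed. In MM against HM-Wnt HepOrgs at 1 week, Sox4 (-0.05) turned to 0.10 on the TPM scale and to 0.028 with the replicate block. In fibrotic-like against homeostatic assembloids at 1 week, Epcam (-0.11) turned to 1.65 on the TPM scale, 1.30 with the block and 1.96 with limma-voom. At 2.5 weeks Spp1 turned to 0.17 on the TPM scale and Cftr to -2.26 with limma-voom. With 1 library left out, MM against HM-Wnt ranged from -0.91 to 0.19 (Epcam), -0.31 to 0.14 (Sox4) and -0.18 to 0.88 (Cd24a) at 1 week and from -0.16 to 1.44 (Sox4) at 2 weeks. Fibrotic-like against homeostatic ranged from -1.30 to 2.66 (Epcam) and -0.37 to 1.56 (Cd24a) at 1 week and from -2.28 to 3.56 (Cftr) at 2.5 weeks. Against MM HepOrgs, homeostatic assembloids ranged from -0.0276 to 2.44 (Cftr), -1.15 to 4.44 (Aqp1) and -0.47 to 1.78 (Cd24a), and fibrotic-like ones from -0.28 to 0.40 (Spp1). The cause was not tested.

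Counts of members past the threshold moved as follows. MM against HM-Wnt gave 0 at either time, but 1 with DESeq2, 1 on the TPM scale and 1 with the replicate block at 1 week, and 2 with the block and 0 to 1 with a library left out at 2 weeks. Fibrotic-like against homeostatic gave 0, but 1 with DESeq2, 1 on the TPM scale, 1 with all 27 libraries in the fit, 3 with limma-voom and 0 to 1 with a library left out at 1 week, and 1 with DESeq2 at 2.5 weeks. Homeostatic against MM HepOrgs gave 0, but 2 with DESeq2 and 0 to 1 with a library left out. Fibrotic-like against MM HepOrgs gave 1, but 3 with DESeq2, 4 on the TPM scale, 4 with only the groups compared, 7 with limma-voom and 0 to 0 with a library left out. The fit with fresh hepatocytes was taken as unpaired, with 19 of 30 same-numbered pairs over 0.1 in the correlation of deviations. There the replicate block made Sox9 pass in HM-Wnt at 2 weeks (0.84, edgeR adjusted p = 0.0234), as did the TPM scale at either time. Cftr and, in HepOrgs, Aqp1 rest on few reads.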
